A study of Mus musculus with 6 samples.

Results

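Genes of the chondrogenic and tendon lineages were examined in mesenchymal stem cells of mouse skeletal muscle that had been kept in medium conditioned by senescent or by control macrophages. The set was fixed by name as the transcription factor genes Sox9, Sox5, Sox6, Scx and Mkx and the matrix and membrane protein genes Acan, Comp, Prg4, Tnmd and Fmod, 10 genes in all. Of these, 9 had a row among the 18124 genes of the deposited count table; Acan, which encodes the cartilage proteoglycan aggrecan, had none and was not analysed here. Of the 9 genes, 8 passed the filter on low counts and were tested, and Sox6 did not pass it.

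The stem cells were sorted from quadriceps of 6 naïve male Col1-eGFP mice, in which a collagen 1 promoter drives green fluorescent protein, as cells positive for GFP and for Sca-1, the Ly6a product, and were used at passage 4. In the senescent medium group the cells were cultured for 72 hours in medium from wild-type bone marrow-derived macrophages that had been exposed to 300 µM hydrogen peroxide for 3 hours, exposed again after 3 days, and then cultured for 14 days. In the control medium group they were cultured for the same time in medium from non-senescent macrophages. For both media the labels give 7 days for the bone marrow-derived macrophages and 48 hours for collection of the medium. For the control macrophages they give no further culture time. Each medium has 3 libraries, with 19420750 to 21659434 estimated counts in the senescent medium group and 17228162 to 21225833 in the control medium group. Sorting on a collagen reporter and expansion in culture limit the cells as a model of chondrocytes or tenocytes, and the labels name no differentiation stimulus. The cells of the 6 mice were pooled, so the libraries of a medium do not stand for separate animals. The labels do not say that these libraries came from separate cultures. The p-values therefore cover the spread among the 6 libraries, part or all of which may be technical.

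SOX9 is the transcription factor that starts and maintains the chondrocyte program, and SOX5 and SOX6, which lack an activation domain of their own, act beside it on cartilage matrix genes such as those of collagen II and aggrecan. Scleraxis (Scx) and Mohawk (Mkx) are the transcription factors best known for tendon, where tenomodulin (Tnmd) is a late marker and fibromodulin (Fmod) binds and orders collagen fibrils. Connective tissue progenitors of muscle are not committed to either lineage but can transcribe genes of both.

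Of the 8 tested genes, 5 fell (Mkx, Prg4, Sox9, Tnmd and Fmod) and 1, Sox5, rose in cells kept in senescent medium, while Comp and Scx missed the threshold, an adjusted p of 0.05 in the quasi-likelihood F-test of edgeR with Benjamini-Hochberg adjustment over all tested genes. Among all 14644 tested genes 49.5% passed, 24.6% higher and 24.9% lower, so changes were common throughout the table. Scaling by library totals in place of TMM gave 2589 higher and 4813 lower calls over all genes, in place of 3607 and 3644, and of the 8 genes 0 were higher and 6 lower. The median log2 fold change, senescent over control medium, was −0.27 for the 8 genes and −0.00096 for all tested genes. Levels are given as CPM, counts scaled to a common library size after TMM correction, with ± for the SD of 3 libraries; beside a fold change ± is its SE. In bulk RNA fewer cells expressing a gene and less of its RNA per cell cannot be told apart. The CPM values of the media did not overlap for 6 of the 8 genes, 1 higher and 5 lower, and for 55.8% of all tested genes, 27.8% higher and 28% lower.

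**Figure D1:**
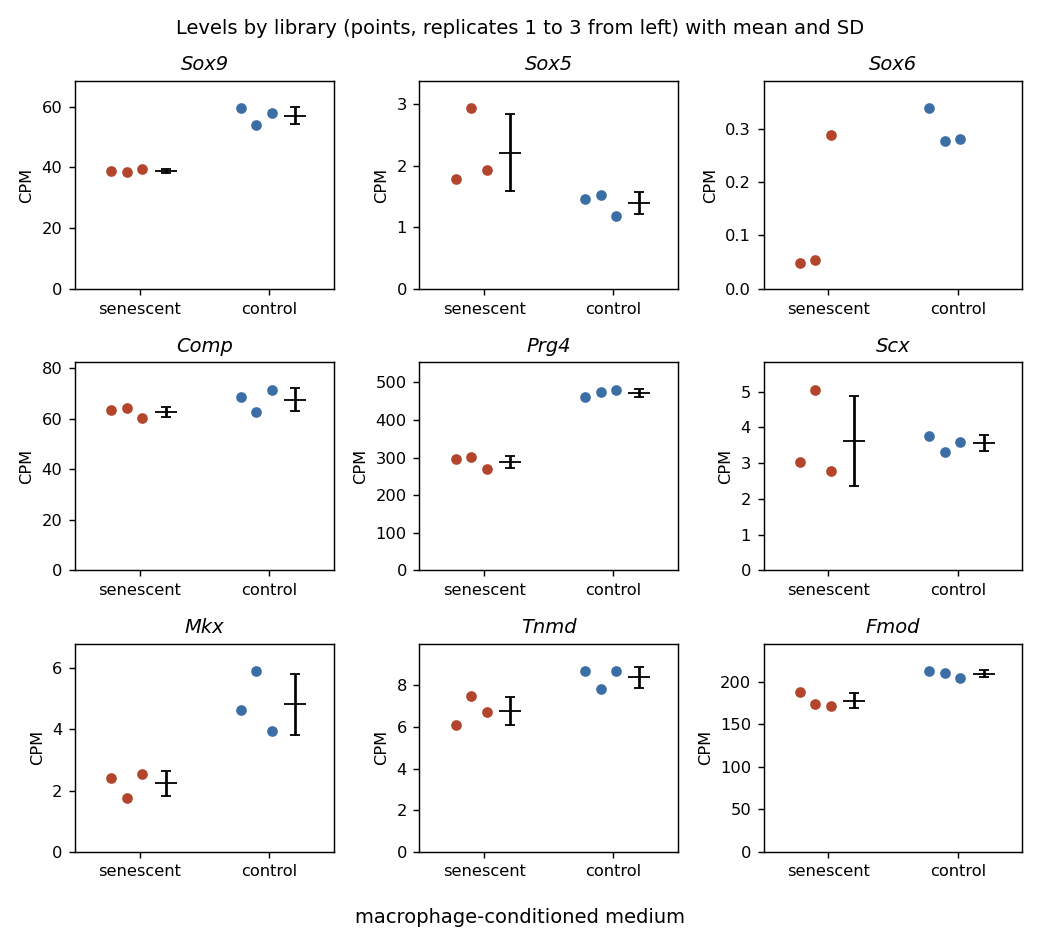
Level of each of the 9 listed genes in each library (y axis, CPM from 0; points, replicates 1 to 3 from left) in senescent medium, left, and control medium, right, with mean and SD except for Sox6, which had too few counts. The points of Sox9, Prg4, Mkx, Tnmd and Fmod lie lower in senescent medium without overlap, those of Sox5 lie higher, and those of Sox6, Comp and Scx overlap.

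Sox9 (ENSMUSG00000000567, chromosome 11) had 38.7, 38.5 and 39.6 CPM in the senescent medium libraries, against 59.5, 53.9 and 57.8 CPM in the control medium libraries. Every senescent medium library lay below every control medium library, and the spread within a medium was small beside the gap. Its log2 fold change was −0.55 ± 0.055 (adjusted p = 9.08e-10, edgeR), and the level in control medium was 1.46 times that in senescent medium. Its CPM had a coefficient of variation of 1.57% among the senescent medium libraries and of 5.05% among the control medium libraries.

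The partner genes of Sox9 were scarce. Sox5 (ENSMUSG00000041540, chromosome 6) had 37, 55 and 40 counts in senescent medium, against 26, 33 and 21 counts in control medium. These correspond to 1.78, 2.93 and 1.92 CPM in senescent medium, against 1.46, 1.52 and 1.18 CPM in control medium. Replicate 2 of the senescent medium stood above the other libraries, and the values did not overlap. The log2 fold change was 0.65 ± 0.27, with a 95% interval of 0.10 to 1.204 and an adjusted p of 0.0449 (edgeR). Without that replicate it was 0.41 (adjusted p = 0.292, edgeR), and the call was also lost with DESeq2 (adjusted p = 0.125) and without any one of the control medium replicates. An antisense gene, Sox5os1, overlaps 9.25% of the exon length of Sox5, and because the strand setting is not given in the sources used here, reads of both could be counted together.

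Sox6 (ENSMUSG00000051910, chromosome 7) was near the limit of detection, with 1, 1 and 6 counts in senescent medium, against 6, 6 and 5 counts in control medium. The CPM values overlapped, with senescent medium replicate 3, at 0.288 CPM, among control medium values of 0.277 to 0.338 CPM. Tested with no filter on low counts, its log2 fold change was −1.135 with an adjusted p of 0.285 (edgeR), so a difference was not detectable at this depth.

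Among the matrix genes of cartilage and joint surfaces, Prg4 fell and Comp did not pass the test. Prg4 (ENSMUSG00000006014, chromosome 1) encodes lubricin, the proteoglycan that lubricates cartilage and tendon surfaces. It had 295, 301 and 269.8 CPM in senescent medium, against 461, 474 and 481 CPM in control medium. The media were far apart relative to the spread within each. With a log2 fold change of −0.71 ± 0.038, 95% interval −0.79 to −0.63 (adjusted p = 7.18e-16, edgeR), the level in control medium was 1.63 times that in senescent medium. Prg4 took 49.3%, 50.5% and 48.5% of the summed CPM of the 9 genes in the senescent medium libraries, against 56.2%, 57.8% and 57.7% in the control medium libraries. That sum was 556 to 599 CPM in senescent medium, against 820 to 832 CPM in control medium, and most of the gap between the sums came from Prg4. Exons of Tpr, on the opposite strand, overlap 4.77% of the exon length of Prg4.

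Comp (ENSMUSG00000031849, chromosome 8), the thrombospondin family member that binds collagens in cartilage and tendon, had 63.4, 64.2 and 60.4 CPM in senescent medium, against 68.6, 62.5 and 71.5 CPM in control medium. Replicate 2 of the control medium lay among the senescent medium values. Its log2 fold change was −0.11 ± 0.052, with a 95% interval of −0.21 to 0.0010 (adjusted p = 0.0948, edgeR). It passed the threshold as lower without that control replicate (log2 fold change −0.16, adjusted p = 0.0175, edgeR) and with libraries scaled by their totals alone (−0.19, adjusted p = 0.00407, edgeR).

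**Figure D2:**
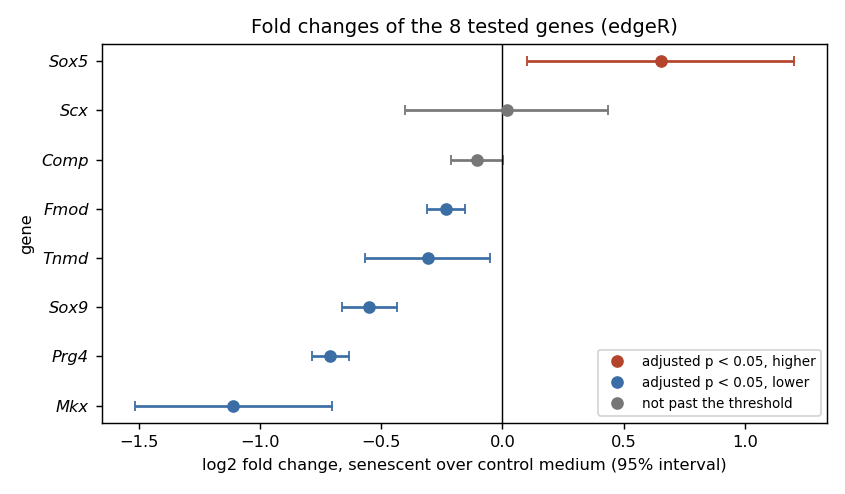
Log2 fold change, senescent over control medium (x axis), of the 8 tested genes (rows), with 95% intervals from edgeR. Mkx, at −1.11, lies farthest below 0 and Sox5, at 0.65, farthest above; the intervals of Scx and Comp include 0.

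Of the tendon transcription factor genes Mkx fell and Scx missed the threshold; the difference between their changes was not tested. Mkx (ENSMUSG00000061013, chromosome 18), a homeobox gene needed for the collagen content of tendon, had 2.40, 1.76 and 2.55 CPM in senescent medium, against 4.62, 5.90 and 3.94 CPM in control medium. The highest senescent medium value lay below the lowest control medium value. The log2 fold change of −1.11 ± 0.20 (adjusted p = 2.50e-05, edgeR) was the largest in size among the 8 genes, and the level in control medium was 2.16 times that in senescent medium. It rested on 136 counts summed over the senescent medium libraries, against 280 over the control medium libraries, and its 95% interval was −1.52 to −0.70. A gene on the same strand, which has no row in the table, overlaps 4.91% of the exon length of Mkx.

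Scx (ENSMUSG00000034161, chromosome 15), which encodes the basic helix-loop-helix factor that marks tendon progenitors, had 3.02, 5.06 and 2.79 CPM in senescent medium, against 3.78, 3.32 and 3.60 CPM in control medium. Replicate 2 of the senescent medium was the highest of the 6 libraries and the other libraries of that medium were the lowest, so the control values lay between them. The log2 fold change was 0.017 ± 0.20, with a 95% interval of −0.40 to 0.43 (adjusted p = 0.953, edgeR), and −0.29 without that replicate (adjusted p = 0.274, edgeR). These data therefore leave room for a change in Scx of up to about that interval in either direction. Scx lies inside the span of Bop1, a ribosome biogenesis gene on the opposite strand, with which it shares no exon. Bop1 fell, with 36.0 ± 1.74 CPM in senescent medium and 43.8 ± 1.39 CPM in control medium (log2 fold change −0.28 ± 0.059, adjusted p = 0.000182, edgeR), and the part of unspliced Bop1 RNA in the Scx values was not tested.

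The tendon effector genes Tnmd and Fmod both fell, by small amounts. Tnmd (ENSMUSG00000031250, chromosome X), a type II membrane protein gene of mature tendon cells, had 6.10, 7.46 and 6.73 CPM in senescent medium, against 8.68, 7.79 and 8.66 CPM in control medium. The gap between the highest senescent medium value and the lowest control medium value was narrow. The log2 fold change was −0.31 ± 0.13 (adjusted p = 0.0421, edgeR), and the call was lost with DESeq2 (adjusted p = 0.138) and without replicate 1 or 3 of either medium. Fmod (ENSMUSG00000041559, chromosome 1) had 188, 175 and 172 CPM in senescent medium, against 213, 211 and 205 CPM in control medium. Its libraries did not overlap either, and its log2 fold change was −0.23 ± 0.038 (adjusted p = 6.85e-06, edgeR). That change did not pass when the test asked for more than a 1.2-fold difference (adjusted p = 0.948, glmTreat in edgeR).

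Of the genes that fell, only Fmod and Tnmd had a matched promoter entry, so their start regions are shown. E-box motifs are marked because the Scx product binds them, and a part of Scx in these changes was not tested. The sequences are those of RefSeq on build GRCm38.p6, run from 250 bases before to 50 bases after the annotated start, and carry E-boxes in capitals.
Fmod promoter, chr1:134037004-134037303, plus strand: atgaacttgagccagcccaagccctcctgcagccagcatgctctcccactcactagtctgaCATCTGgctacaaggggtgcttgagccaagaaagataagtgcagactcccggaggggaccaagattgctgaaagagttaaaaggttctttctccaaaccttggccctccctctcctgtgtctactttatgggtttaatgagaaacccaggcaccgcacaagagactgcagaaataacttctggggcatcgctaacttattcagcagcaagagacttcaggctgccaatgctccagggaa
Tnmd promoter, chrX:133850758-133851057, plus strand: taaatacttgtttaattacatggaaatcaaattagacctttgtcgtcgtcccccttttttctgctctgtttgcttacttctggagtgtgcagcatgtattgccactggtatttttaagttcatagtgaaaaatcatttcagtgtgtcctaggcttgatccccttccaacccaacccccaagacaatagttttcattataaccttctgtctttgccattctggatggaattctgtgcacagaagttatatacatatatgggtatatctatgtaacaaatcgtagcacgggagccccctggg
The E-box was searched as CANNTG, which reads the same on both strands. The Fmod window holds 1 match, CATCTG, that begins 189 bases before the start, and the Tnmd window holds 0. Of 32851 promoter windows of this length in the same table, 72.3% hold at least 1 match, so a match is common. The letters AACAAT or their reverse complement ATTGTT, a form of the core that SOX factors bind, were in neither window and in 10.7% of all windows. Promoter entries were matched for 5 of the 10 genes.

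Scaled for exon length, the order of the levels was the same in both media. The length-scaled level (TPM, counts per kilobase of exon, scaled to the same sum in every library) was highest for Prg4, with 215.5 ± 12.2 in senescent medium and 385 ± 13.0 in control medium. Fmod followed with 172 ± 7.21 in senescent medium and 221 ± 2.72 in control medium, then Comp with 67.5 ± 2.19 in senescent medium and 79.5 ± 5.46 in control medium. Sox9 had a length-scaled level of 30.1 ± 0.534 in senescent medium and 48.2 ± 2.10 in control medium. Tnmd (16.0 ± 1.71 in senescent medium and 21.6 ± 1.23 in control medium), Scx (5.78 ± 2.02 in senescent medium and 6.20 ± 0.347 in control medium) and Mkx (1.74 ± 0.323 in senescent medium and 4.11 ± 0.861 in control medium) came next. Sox5 had 0.492 ± 0.142 TPM in senescent medium and 0.337 ± 0.0428 TPM in control medium, and Sox6 was under 0.1 TPM in every library. Neighbours in this order did not overlap in either medium. TMM correction was not applied to the length-scaled levels, so they order genes within a medium, and the media are compared by CPM. Comp had 65.2 to 69.6 TPM in senescent medium and 74.0 to 84.9 TPM in control medium, without overlap, whereas its CPM values overlapped. Scx was lower in senescent medium by mean TPM but not by mean CPM (3.62 in senescent medium and 3.57 in control medium). Prg4 ranked 504 and Fmod 777 by mean length-scaled level among the 18092 genes with an annotated length, whereas Sox5 ranked 15727. The matrix genes were thus among the more abundant transcripts and the SOX5, SOX6 and Mohawk genes among the scarce ones.

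**Figure D3:**
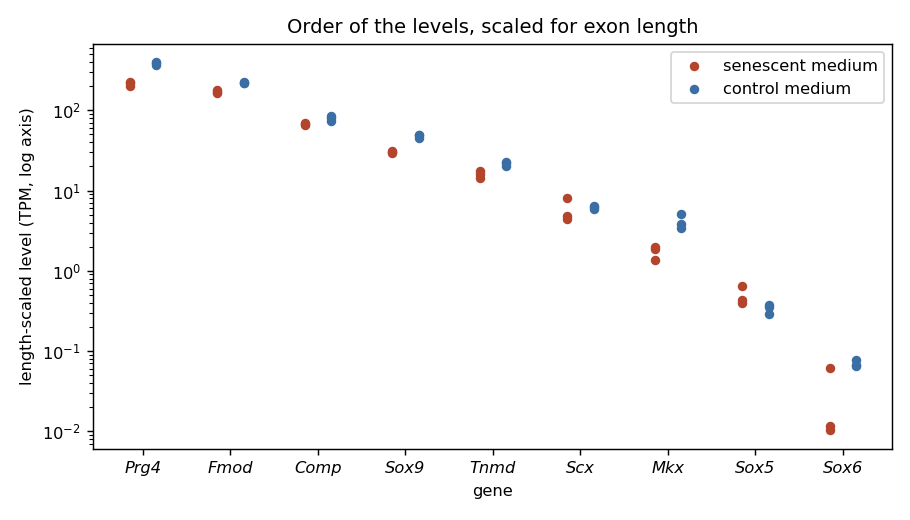
Length-scaled level in TPM (y axis, log scale) of the 9 listed genes (x axis) in each library, senescent medium left of control medium for each gene. The order from Prg4 to Sox6 is the same in both media. These levels carry no TMM correction.

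The pattern of Prg4 over the 6 libraries was most like that of Arhgef17, a guanine nucleotide exchange factor gene, Fzd4, a Wnt receptor gene, and Cand1, a regulator of cullin ligases, among 10930 genes with at least 5 CPM on average. The Pearson correlation of log2 CPM was 0.999 for each of the 3 genes, as a description over 6 libraries that share the difference between media. Their own log2 fold changes were −0.39 ± 0.036 for Arhgef17, −0.67 ± 0.045 for Fzd4 and −0.38 ± 0.036 for Cand1.

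Other genes of the cartilage matrix moved both ways. The counts for this and the following lists are to be read beside the 24.6% higher and 24.9% lower of all tested genes. No list was tested as a set. Of 21 such genes 12 were listed and 10 tested, of which 2 rose and 5 fell; the median log2 fold change was −0.21. Col2a1, the main collagen of cartilage, had 42.2, 46.9 and 43.7 CPM in senescent medium, against 30.6, 36.5 and 38.3 CPM in control medium. It was thus higher in each senescent medium library while Sox9 was lower (log2 fold change of Col2a1 0.33 ± 0.069, adjusted p = 0.000247, edgeR). Of the chains of collagen XI, which joins collagen II in its fibrils, Col11a2 rose (0.98 ± 0.26) and Col11a1 fell (−0.62 ± 0.086). Col11a2 was low, with 2.39 ± 0.409 CPM in senescent medium and 1.21 ± 0.216 CPM in control medium. Col11a1 had 18.5 ± 2.95 CPM in senescent medium and 28.5 ± 0.944 CPM in control medium. Cilp, a cartilage intermediate layer protein gene, fell to 3.49 ± 0.480 CPM in senescent medium, against 7.67 ± 0.395 CPM in control medium, and Csgalnact1, an enzyme gene of chondroitin sulfate synthesis, changed by −0.25 ± 0.034. Hapln1, Col9a1, Chad, Epyc and Cnmd were among the 9 genes of this list with no row and were not analysed here.

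Most called genes of the wider tendon matrix list were higher. Of 19 genes 17 were tested, 10 rose and 2 fell (median 0.22). Col5a1, a collagen that limits fibril width, had 1956 ± 57.2 CPM in senescent medium and 1129 ± 33.6 CPM in control medium (0.79 ± 0.034), and Prelp, a small leucine-rich proteoglycan related to fibromodulin, changed by 0.59 ± 0.036. Col1a1, the most abundant of the list, changed by 0.49 ± 0.033, and Col1a2, its partner chain in collagen I, by 0.54 ± 0.032. Aspn (asporin), of the same proteoglycan family, fell to 5.73 CPM in senescent medium, against 18.1 CPM in control medium (−1.66 ± 0.11). Lum had at most 5 counts in any library and was not tested.

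**Figure D4:**
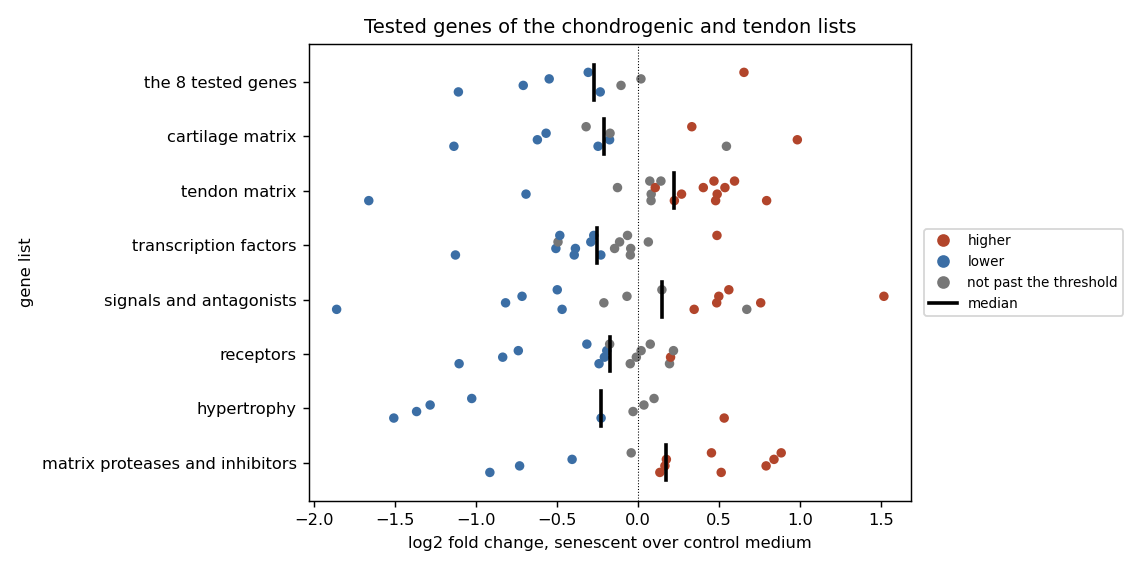
Log2 fold change, senescent over control medium (x axis), of the 8 tested genes described above and of the tested genes of the other lineage lists (rows; points, genes; bar, median), coloured by whether they passed the threshold; the relatives and the cell type marker lists are not drawn. The medians of the rows drawn lie between −0.27 for the 8 genes and 0.22 for the tendon matrix list.

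Among other transcription factor genes of these lineages 16 of 23 were tested, 1 rose and 8 fell (median −0.25). The risen gene was Egr1, a mechanically induced regulator of tendon genes, with 36.9 ± 1.62 CPM in senescent medium and 26.3 ± 1.28 CPM in control medium (0.49 ± 0.065). Foxc1, a factor of skeletal progenitors, changed by −0.48 ± 0.067 and Runx1 by −0.27 ± 0.053.

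Signals that act on both lineages also moved both ways. Of 22 genes of secreted ligands and antagonists 15 were tested, 6 rose and 5 fell. Bmp6 had 53.6 ± 2.43 CPM in senescent medium and 18.8 ± 1.44 CPM in control medium (1.52 ± 0.067), and Grem1, a BMP antagonist gene, 282 ± 4.55 CPM in senescent medium and 497 ± 23.2 CPM in control medium (−0.82 ± 0.036). Gdf5, a joint-forming BMP family ligand gene, was low and fell (−1.86 ± 0.41), and Fgf2 changed by −0.50 ± 0.039. Of 15 receptor genes, all tested, 1 rose and 7 fell; Fgfr2 had 15.2 ± 0.951 CPM in senescent medium and 27.1 ± 0.878 CPM in control medium (−0.84 ± 0.078), Bmpr1a changed by −0.32 ± 0.038, and Fgfr1 by −0.24 ± 0.034.

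Genes of chondrocyte hypertrophy and of mineral deposition or its control were lower where they were called, apart from Phospho1. Of 9 tested genes 5 fell and 1 rose (median −0.23). Col10a1, the collagen of hypertrophic chondrocytes, fell to 5.96 CPM in senescent medium, against 15.4 CPM in control medium (−1.37 ± 0.11), Alpl changed by −1.51 ± 0.11, Ank, a pyrophosphate transport gene, by −1.03 ± 0.044 and Spp1 by −0.23 ± 0.037. Exons of Phospho1 are overlapped by Zfp652 over 89.6% and by Abi3, on the opposite strand, over 84.2% of their length, so its rise could hold reads of those genes. Of 12 tested genes of proteases that cleave aggrecan or COMP and of their inhibitors 8 rose and 3 fell (median 0.17). Every inhibitor gene of the list was among those that rose. Adamts5, the main aggrecanase gene of mouse cartilage, had 1438 ± 30.7 CPM in senescent medium and 780 ± 47.3 CPM in control medium (0.88 ± 0.037). Adamts12 and Adamts7, which are among the proteases known to cleave COMP, rose (0.79 ± 0.046) and fell (−0.73 ± 0.098), respectively. The inhibitor gene Timp2 changed by 0.45 ± 0.033.

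Relatives of the 10 genes named by the rule, Acan included, moved both ways or missed the threshold. Of 11 tested paralogs and genes with shared domains 2 rose and 2 fell (median −0.053), and 4 fell when libraries were scaled by totals. Sox13, the remaining gene of the SOX5 and SOX6 group, had 7.74 CPM in senescent medium and 6.61 CPM in control medium (0.23 ± 0.13, adjusted p = 0.144, edgeR). Thbs3, a close relative of Comp, fell to 26.2 ± 0.372 CPM in senescent medium, against 44.8 ± 2.16 CPM in control medium (−0.77 ± 0.062), and Thbs1 changed by −0.16 ± 0.039.

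Markers of the sorted stromal cells ranged widely in level. Ly6a had 1235 CPM in senescent medium and 1206 CPM in control medium, Pdgfra 217 ± 2.06 CPM in senescent medium and 265 ± 9.87 CPM in control medium, Pi16 6.11 CPM in senescent medium and 4.58 CPM in control medium, and Dpp4, with at most 5 counts in any library, was not tested. Of 9 tested genes of that list 5 rose and 3 fell; with scaling by totals 3 rose. Of 13 macrophage genes 8 had no row, among them Ptprc and Adgre1, and the summed level of the others was 18.1 to 24.2 CPM in senescent medium and 18.9 to 21.97 CPM in control medium; of 4 tested, Lyz2 rose and Csf1r and Cd14 fell, and Csf1r had 3.20 ± 0.726 CPM in senescent medium and 4.62 ± 1.06 CPM in control medium. Pax7, Myf5 and Myod1 had no row, and the 3 listed muscle genes summed to 17.8 to 19.8 CPM in senescent medium and 9.82 to 11.5 CPM in control medium, with Des and Acta1 higher. Of 8 Schwann cell genes, Sox10 had no row, and the 6 listed summed to 11.2 to 11.7 CPM in senescent medium and 8.83 to 10.9 CPM in control medium; the 3 tested genes, S100b among them, missed the threshold. Pecam1 had at most 5 counts and Cdh5 no row among the endothelial genes, whose listed members summed to 28.6 to 34.9 CPM in senescent medium and 26.1 to 28.4 CPM in control medium, with Kdr, the receptor gene of VEGF, higher and Tek and Egfl7 short of the threshold. Pericyte and smooth muscle genes summed to 112 to 126 CPM in senescent medium and 108 to 120 CPM in control medium; of 7 tested, Des and Cspg4 rose, Myh11 and Mcam fell, and Rgs5, Abcc9 and Notch3 missed the threshold. The part of these cell types in the changes of the chondrogenic and tendon genes was not tested.

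**Figure D5:**
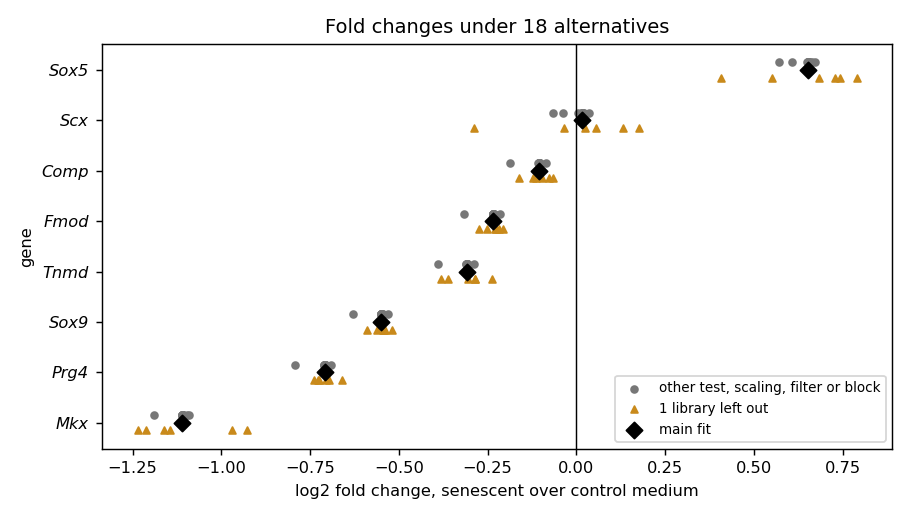
Log2 fold change, senescent over control medium (x axis), of the 8 tested genes (rows) in the main fit (diamond), under other tests, scalings, filters, thresholds and the replicate block (circles) and with 1 library left out (triangles). Mkx, Prg4, Sox9, Tnmd and Fmod lie below 0 and Sox5 above 0 in all of them, Comp lies below 0, and Scx lies on both sides.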

How the data were processed

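RNA from 3 libraries per medium, about 600 ng each, was sequenced as paired 150 bp reads, per the labels' protocols. The table deposited by the authors gives estimated counts, without normalization, for each Ensembl gene. Per the submitters' processing notes STAR, DESeq2 and build mm39 were used, in roles that are not stated; which tool counted reads, on which annotation and with which strand setting, is not given in the sources used here. No listed gene had fewer than 10 counts over the libraries together. Counts were rounded to whole numbers and tested with edgeR 4.0.16 (R 4.3.3): TMM scaling, the edgeR expression filter, robust quasi-likelihood F-test, two-sided, with medium as the only term and Benjamini-Hochberg adjustment over 14644 genes at 0.05. The SE of a fold change was its size over the square root of F. The script was tested on simulated data. Symbols and exon lengths came from GENCODE M21 (build GRCm38, 18092 of 18124 identifiers matched). No coordinates on mm39 are given, and those of the promoter windows are on GRCm38.p6. Exons of Spp1, Gdf5 and Csf1r overlap another gene over more than 10% of their length.

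The genes and lists were chosen with earlier results of these data known. Other named genes were, per list, the 2 with the smallest p and the most abundant one, plus defining markers and the 3 genes most like Prg4. Named outside that rule after their values were seen were Bop1, Col2a1, Col11a1, Col11a2, Aspn, Lum, Gdf5, Adamts7, Col10a1, Sox13, Phospho1, Ly6a, Pi16, Dpp4, Egfl7 and Abcc9. Some genes that the rule selects are not reported here. Alternatives were DESeq2 1.42.0, limma-voom (limma 3.58.1), other scalings, filters and thresholds, the replicate number as a block, and each library left out.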

Additional observations from a re-analysis of the deposited data

How the results depend on the processing

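The directions of Mkx, Prg4, Sox9, Tnmd, Fmod, Comp and Sox5 were kept under all 18 alternatives, and the calls of Mkx, Prg4 and Sox9 as lower were kept as well. With 1 library left out, log2 fold changes ranged from −0.59 to −0.52 for Sox9, −0.74 to −0.66 for Prg4, −1.24 to −0.93 for Mkx, −0.27 to −0.21 for Fmod, −0.38 to −0.24 for Tnmd, −0.16 to −0.065 for Comp, 0.41 to 0.79 for Sox5 and −0.29 to 0.18 for Scx. In those fits 0 to 1 of the genes were called higher. The Sox5 call was lost with DESeq2 (0.66), limma-voom (0.61), library totals (0.57), non-robust dispersion (0.65), a threshold of 0.01 and a 1.2-fold test (log2 fold change 0.65 in both), and the number of genes called higher was then 0 in place of 1. The Tnmd call was lost with DESeq2 (−0.31), upper-quartile factors (−0.29), no filter on low counts (−0.31), a threshold of 0.01 and a 1.2-fold test (−0.31 in both). Comp was called lower with library totals (−0.19). The sign of Scx turned with limma-voom (−0.038), library totals (−0.065) and without senescent-medium replicate 2 (−0.29) or control replicate 2 (−0.035). The 1.2-fold test ended the Fmod call (−0.23) and left 3 of the 5 lower calls; over all genes it left 1457 higher and 1491 lower in place of 3607 and 3644. The cause of the other lost calls was not tested. With library totals 2589 genes were higher and 4813 lower, and the median log2 fold change of all genes was −0.082. Deviations of same-numbered libraries correlated at 0.0019 to 0.026 and those of differently numbered libraries at −0.046 to 0.027. These values showed no pairing of the samples by replicate number. With the replicate block 5 genes were called lower and 1 higher, as without it, and the log2 fold change of Sox9 was −0.55. Over all genes the block gave 3704 higher and 3698 lower calls, in place of 3607 and 3644. Counts of 21 to 55 for Sox5 and 1 to 6 for Sox6 over the 6 libraries limit both.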
